A study of Mus musculus with 12 samples.

Results

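Globin and other erythroid transcripts were examined in RNA sequencing of the striatum of mice lacking trace amine-associated receptor 5, a receptor for volatile amines (TAAR5-KO), and of wild-type (WT) mice. The 6 genes, of 57132 features counted, are the adult alpha-globin genes Hba-a1 and Hba-a2, the adult beta-globin genes Hbb-bs and Hbb-bt, Alas2 and Bpgm, taken by symbol as erythroid genes that may report the blood left in dissected tissue. The genes were chosen by the counts of these same libraries, in which the genotype difference of Hbb-bt was known, so genotype values of the 6 genes are a description, with no test. The study sequenced 6 libraries for each genotype from C57Bl/6 littermates aged 10 months, 3 males and 3 females per genotype by the methods. The knockout line carries its deletion in every cell, so an effect on blood and one on brain cells would enter the same value. Mice were killed by cervical dislocation, and the striatum was taken from the coronal slice between 2 mm anterior and Bregma after removal of the cortex. Whether the animals were perfused is not given in the sources used here. The count columns named NK1 to NK6 bear the TAAR5-KO label (KO-labelled) and those named NK7 to NK12 the WT label (WT-labelled), without a link to single animals or their sex.

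Haemoglobin carries oxygen as a tetramer of alpha and beta chains, each holding a haem group. Alas2 is the erythroid form of the first and rate-limiting enzyme of haem synthesis, and Bpgm makes 2,3-bisphosphoglycerate, which lowers the affinity of haemoglobin for oxygen. Mature red cells have no nucleus but, like the reticulocytes before them, carry globin mRNA, so brain tissue that was not cleared of blood holds some. Globin transcripts have also been described in neurons and glia. In bulk tissue, fewer cells of a type and less RNA per cell cannot be told apart, and neither can globin mRNA of blood and of brain cells.

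The counts of Taar5 were few and ran against the genotype labels, with 1 to 6 counts in KO-labelled libraries and 0 to 2 in WT-labelled ones, where a count of 0 allows up to 3. Only NK6, with 6 counts, lay above 3, so these unscaled counts cannot settle the genotype. Directions therefore follow the labels of the libraries. Total counts ran from 11269915 to 34824450 per library, of which ribosomal RNA features took 64.3% to 88.1%. Counts outside ribosomal RNA, which set the precision for the globin genes, ran from 1819907 to 6399188. Levels are counts per M of library size (CPM) after scaling by the trimmed mean of M-values (TMM), whose factors ran from 0.375 to 2.47. On this scale, the floor of 3 counts lay between 0.0679 and 0.362 CPM. Striatal tissue was recognised by a list of 8 neuron markers, among them Drd1, Drd2, Adora2a and Penk, which summed to between 176 and 394 CPM.

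The globin members fall into 2 pairs of near-identical genes. Hba-a1 (ENSMUSG00000069919.8) lies on the plus strand of chr11:32233511-32234465 in GRCm39 and Hba-a2 (ENSMUSG00000069917.8) on the plus strand of chr11:32246489-32247298. Hbb-bs (ENSMUSG00000052305.7) lies on the minus strand of chr7:103475741-103477303 and Hbb-bt (ENSMUSG00000073940.4) on the minus strand of chr7:103461731-103463203. In the GENCODE M39 transcripts, the coding sequences of Hba-a1 and Hba-a2 differed in 1 of 426 bases (99.8% identity), and those of Hbb-bs and Hbb-bt in 1 of 441 bases (99.8% identity). Both differences leave the amino acid as it is, so each pair codes for a single chain. Each falls in exon 3, whose coding part of 126 bases is shown from GRCm39 for the 4 genes, with the base that differs within a pair in capitals, because reads over the rest of the coding sequence cannot be given to one copy.
Hba-a1 (chr11:32234263-32234388, plus strand): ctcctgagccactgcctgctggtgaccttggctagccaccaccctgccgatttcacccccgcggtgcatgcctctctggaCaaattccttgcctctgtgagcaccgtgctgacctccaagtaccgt
Hba-a2 (chr11:32247080-32247205, plus strand): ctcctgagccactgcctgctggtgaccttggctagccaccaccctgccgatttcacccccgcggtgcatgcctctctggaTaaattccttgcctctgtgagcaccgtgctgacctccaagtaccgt
Hbb-bs (chr7:103475875-103476000, minus strand): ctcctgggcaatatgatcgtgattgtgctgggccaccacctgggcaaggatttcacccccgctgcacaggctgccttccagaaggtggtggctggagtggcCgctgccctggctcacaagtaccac
Hbb-bt (chr7:103461866-103461991, minus strand): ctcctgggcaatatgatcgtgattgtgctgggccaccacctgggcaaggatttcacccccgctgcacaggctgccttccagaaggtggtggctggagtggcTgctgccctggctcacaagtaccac

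A read of 100 bases, the length sequenced, tells the copies apart only in part of their transcripts. Of the 100-base windows of the reference transcript, 470 of 639 (73.6%) of Hba-a1 also occurred in Hba-a2, and 448 of 548 (81.8%) of Hba-a2 occurred in Hba-a1. For Hbb-bt, 331 of 605 windows (54.7%) occurred in Hbb-bs. For Hbb-bs, 365 of 565 windows (64.6%) occurred in Hbb-bt or in Gm74438, a long non-coding RNA annotated on the opposite strand in M39 and not a counted feature here. The other members were easier to count. Alas2 (ENSMUSG00000025270.14, plus strand of chrX:149330371-149353634) shared 213 of 1938 windows (11%) with Apex2, which overlaps it on the opposite strand, and Bpgm (ENSMUSG00000038871.6, plus strand of chr6:34453142-34482548) shared 0 of 3602. How the authors counted reads that map to several places, and whether they counted by strand, is not given in the sources used here, so the split between copies is uncertain.

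**Figure D1:**
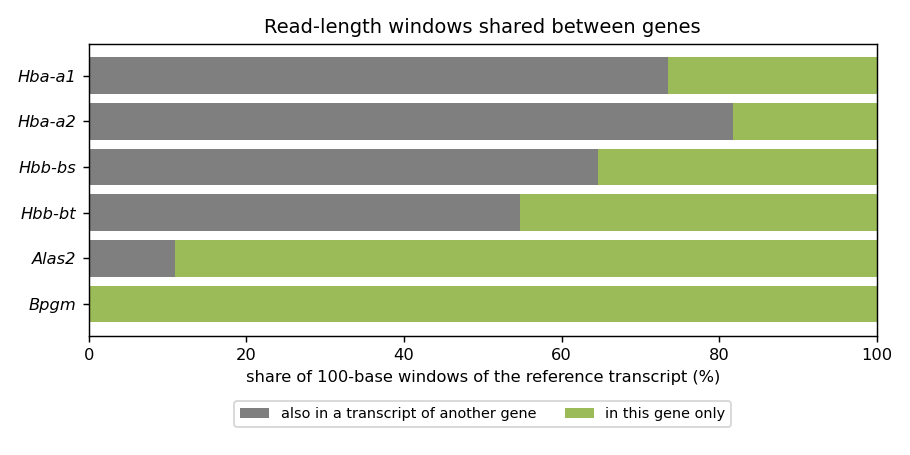
Share of 100-base windows of the reference transcript (x axis, percent) that also occurred in a transcript of another gene (grey) or in no other gene (green), for each of the 6 genes. The shared part is 54.7% to 81.8% for the globin genes, 11% for Alas2 and 0 for Bpgm.

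The sequences upstream of the start sites differ more between the beta genes than their coding sequences do. Within the 300-base windows of RefSeq (GRCm38.p6) around the start site, the longest run shared by Hba-a1 and Hba-a2 was 297 bases, against 14 bases for Hbb-bs and Hbb-bt. The 250 bases before the RefSeq start are shown for 1 alpha gene, both beta genes and Alas2. On TMM library sizes, the levels of Hbb-bt and Alas2 followed those of Hbb-bs across libraries. This likeness changed with the scaling, and a link between it and these sequences was not tested. Positions are where the RefSeq letters match GRCm39. Capitals mark matches, on either strand, to the GATA motif searched as GATAA, to the box known as CACCC, to the box known as CCAAT, and to the TATA motif searched as TATAA, whose complement reads TTATA. Matches can overlap: in Alas2 the TATA motif matches both strands at 1 place, and in Hbb-bt 2 CCAAT matches on opposite strands adjoin.
Hba-a2 (chr11:32246242-32246491, plus strand): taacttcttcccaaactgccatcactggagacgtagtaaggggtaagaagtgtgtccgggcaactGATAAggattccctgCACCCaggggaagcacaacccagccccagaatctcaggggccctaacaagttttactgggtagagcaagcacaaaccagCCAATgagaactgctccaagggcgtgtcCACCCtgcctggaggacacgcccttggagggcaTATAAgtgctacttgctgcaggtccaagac
Hbb-bs (chr7:103477136-103477385, minus strand): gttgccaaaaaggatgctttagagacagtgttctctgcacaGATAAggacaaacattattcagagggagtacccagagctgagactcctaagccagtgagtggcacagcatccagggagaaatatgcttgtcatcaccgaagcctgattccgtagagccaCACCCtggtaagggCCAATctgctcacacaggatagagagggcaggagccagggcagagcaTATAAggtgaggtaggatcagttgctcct
Hbb-bt (chr7:103463131-103463380, minus strand): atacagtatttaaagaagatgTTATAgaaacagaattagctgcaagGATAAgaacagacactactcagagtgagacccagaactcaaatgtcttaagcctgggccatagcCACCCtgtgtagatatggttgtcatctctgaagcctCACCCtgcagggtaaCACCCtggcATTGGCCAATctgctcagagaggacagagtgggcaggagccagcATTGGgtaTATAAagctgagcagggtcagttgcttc
Alas2 (chrX:149330163-149330412, plus strand): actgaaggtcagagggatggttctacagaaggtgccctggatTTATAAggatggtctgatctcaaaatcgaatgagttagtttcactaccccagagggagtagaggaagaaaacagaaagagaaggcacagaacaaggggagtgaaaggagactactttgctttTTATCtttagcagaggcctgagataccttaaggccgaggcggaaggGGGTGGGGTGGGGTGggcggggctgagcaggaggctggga

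The upstream windows of both alpha genes, both beta genes and Alas2 each held the GATA motif, which 23% of 27025 promoters of the same length held. A CACCC box was also found in each of these 5 (51.3% of promoters), with 3 matches in Hbb-bt and in Alas2, 2 in each alpha gene and 1 in Hbb-bs. A CCAAT box was present in the 4 globin windows, with 3 matches in Hbb-bt and 1 in each other, and these letters did not occur in the Alas2 window (34.5% of promoters). The TATA motif had 1 match in both alpha genes and Hbb-bs and 2 in Hbb-bt and Alas2 (23.5% of promoters). The GATA motif and both boxes occurred together in 3.47% of promoters. In Bpgm, 3 CCAAT matches and 0 matches to the other motifs were found. A match describes the letters only.

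Adult beta-globin from Hbb-bs was the most abundant member. It had 31 to 236 counts per library. Hbb-bs was at 12.2, 8.68, 11, 8.0, 6.85 and 4.62 CPM in NK1 to NK6, KO-labelled, and at 5.77, 4.98, 3.4, 10.1, 6.43 and 5.34 CPM in NK7 to NK12, WT-labelled. The groups overlapped: NK10 stood among the high KO-labelled libraries and NK6 below 5 of the WT-labelled libraries. The mean was 8.55 ± 2.74 CPM (SD, n = 6) in KO-labelled libraries and 6.01 ± 2.26 CPM (SD, n = 6) in WT-labelled ones, a log2 fold change of 0.51 (SE 0.22) in the fit across all features. Its direction depended on the scaling, since with the library size alone the log2 fold change was −0.17 (SE 0.55), while that scaling moved the median over all features tested from −0.01 to −0.49. Leaving out NK1, NK2 and NK3, an alternative chosen after seeing the data, gave a log2 fold change of 0.12 (SE 0.24).

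Hbb-bt, the other adult beta gene of the Hbb-s haplotype that C57BL/6 mice carry, was much lower. Its counts were 19, 10, 9, 11, 16 and 16 in NK1 to NK6, KO-labelled, and 9, 5, 0, 3, 8 and 5 in NK7 to NK12, WT-labelled. Scaled, it was at 1.46, 0.782, 0.730, 0.682, 0.672 and 0.418 CPM in the KO-labelled libraries and at 0.325, 0.209, 0, 0.362, 0.370 and 0.113 CPM in WT-labelled ones. NK1 stood highest and NK9 had no count, and every KO-labelled library lay above every WT-labelled library. Of the 13902 features tested, 140 (1.01%) had groups that did not overlap on this scale, 86 of them (0.619%) higher in KO-labelled libraries. On CPM of the total count, the groups of Hbb-bt overlapped.

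The mean of Hbb-bt was 0.790 ± 0.349 CPM (SD, n = 6) in KO-labelled libraries and 0.230 ± 0.150 CPM (SD, n = 6) in WT-labelled ones, a log2 fold change of 1.70 (SE 0.40). It was the only member past the study's threshold, an adjusted p under 0.1 in the likelihood ratio test of edgeR, which 229 features (1.65%) passed, with 133 (0.957%) higher under the KO label and 96 (0.691%) lower. Since the genes were chosen with this contrast known, nothing is read from that count. By the quasi-likelihood test, 63 features (0.453%) and 0 members passed, with 1670 features at an unadjusted p under 0.05. Hbb-bt passed the filter on low counts mainly through KO-labelled libraries, with 4 of them and 1 WT-labelled at 0.5 CPM of the total count or more.

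**Figure D2:**
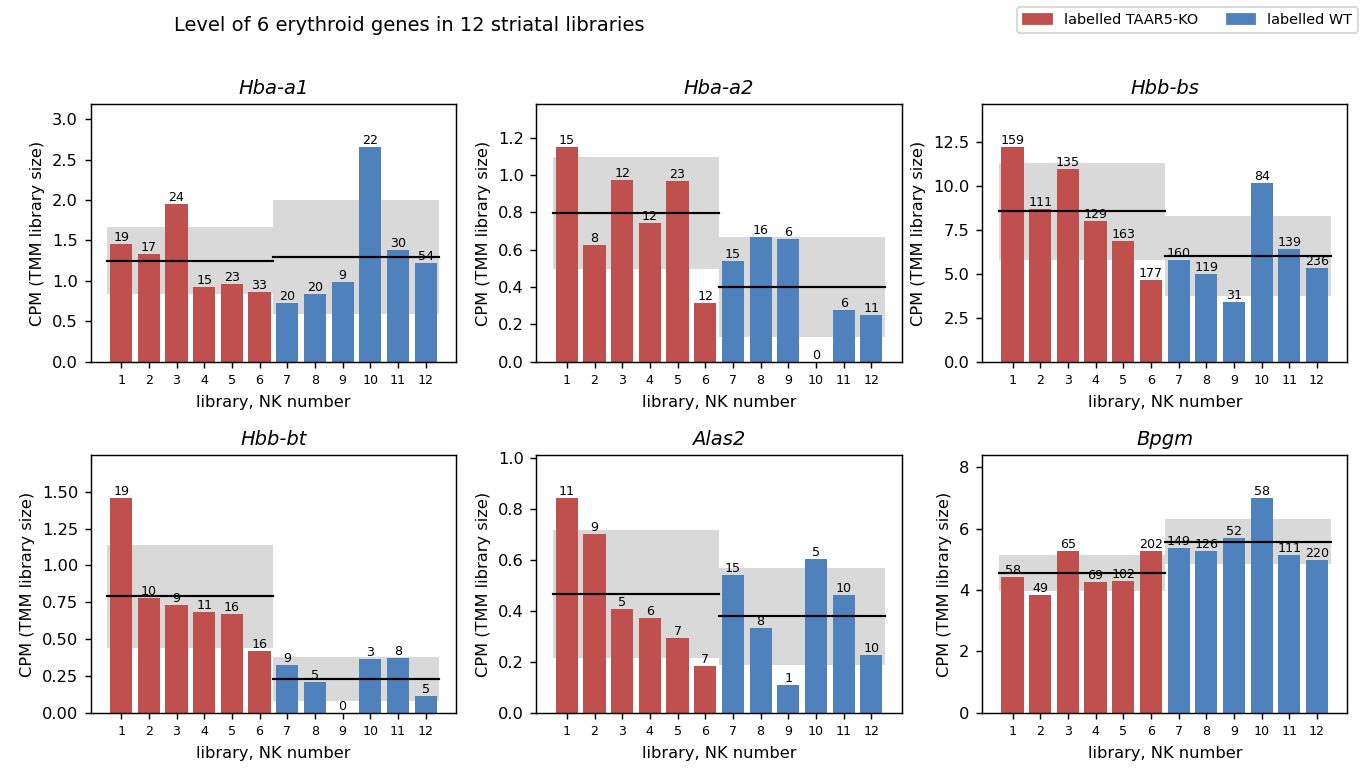
Level of each gene (y axis, CPM on TMM library sizes) in the 12 libraries (x axis, NK number), red for KO-labelled libraries and blue for WT-labelled ones. Numbers on the bars are counts, black lines the group means and grey bands 1 SD on either side. Hbb-bt is the only gene whose groups do not overlap, on 0 to 19 counts per library.

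The alpha genes had fewer counts than Hbb-bs. Hba-a1 was at 1.46, 1.33, 1.95, 0.930, 0.966 and 0.862 CPM in NK1 to NK6 and at 0.721, 0.836, 0.986, 2.65, 1.39 and 1.22 CPM in NK7 to NK12, on 9 to 54 counts. NK10, a WT-labelled library, was the highest of all 12, and the groups overlapped over most of their range. The means were 1.25 ± 0.417 CPM in KO-labelled libraries and 1.30 ± 0.706 CPM in WT-labelled ones (SD, n = 6 each), with a log2 fold change of −0.02 (SE 0.29). Hba-a2 was at 1.15, 0.625, 0.974, 0.744, 0.966 and 0.313 CPM in NK1 to NK6 and at 0.541, 0.669, 0.657, 0, 0.277 and 0.249 CPM in NK7 to NK12, on 0 to 23 counts. KO-labelled libraries were mostly higher, yet NK6 lay below 3 of WT-labelled ones. The means were 0.795 ± 0.300 CPM and 0.399 ± 0.267 CPM (SD, n = 6 each), with a log2 fold change of 0.91 (SE 0.39).

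Because reads cannot always be given to 1 copy, each pair was also summed before the fit. The log2 fold change of Hba-a1 with Hba-a2 was then 0.28 (SE 0.23) and that of Hbb-bs with Hbb-bt was 0.58 (SE 0.23), and neither sum passed the threshold.

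Alas2 was at the edge of detection. It had 11, 9, 5, 6, 7 and 7 counts in NK1 to NK6 and 15, 8, 1, 5, 10 and 10 in NK7 to NK12, which gave 0.843, 0.704, 0.406, 0.372, 0.294 and 0.183 CPM and 0.541, 0.335, 0.110, 0.603, 0.462 and 0.226 CPM. The libraries of both labels were spread over the same range. The means were 0.467 ± 0.253 CPM in KO-labelled libraries and 0.379 ± 0.190 CPM in WT-labelled ones (SD, n = 6 each). The log2 fold change of 0.19 (SE 0.41) turned to −0.61 (SE 0.63) with the library size alone. With that scaling, the median over all features tested moved from −0.01 to −0.49. Without NK1, NK2 and NK3, an alternative chosen after seeing the data, the log2 fold change of Alas2 was −0.49 (SE 0.45).

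Bpgm, which other tissues express as well, varied least. It was at 4.44, 3.83, 5.28, 4.28, 4.28 and 5.27 CPM in NK1 to NK6 and at 5.37, 5.27, 5.70, 6.99, 5.13 and 4.98 CPM in NK7 to NK12, on 49 to 220 counts. NK10 was again the highest, and the groups overlapped in NK3 and NK6. The means were 4.56 ± 0.587 CPM in KO-labelled libraries and 5.57 ± 0.737 CPM in WT-labelled ones (SD, n = 6 each), and the log2 fold change was −0.23 (SE 0.12).

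Per kb of exon, Hbb-bs was highest at 9.48 ± 3.57 CPM per kb (SD, n = 12). Hba-a1 followed at 1.57 ± 0.682, Bpgm at 1.41 ± 0.230, Hba-a2 at 0.895 ± 0.511, Hbb-bt at 0.725 ± 0.553 and Alas2 at 0.176 ± 0.0909 CPM per kb. Hba-a1 and Bpgm lay within 1 SD of each other, as did Hba-a2 and Hbb-bt. Relative to other features, all members except Bpgm were variable. The SD of log2 CPM over the 12 libraries exceeded that of 99.3% of the features tested for Hbb-bt, 99.2% for Hba-a2, 92.9% for Alas2, 87.3% for Hbb-bs, 84.3% for Hba-a1 and 35.7% for Bpgm. The highest library exceeded the lowest by 7.69-fold for Alas2, 3.68-fold for Hba-a1, 3.59-fold for Hbb-bs and 1.83-fold for Bpgm. Low counts raise this spread, and their part in it was not tested.

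The shares of the globin genes within a library do not depend on scaling. Hbb-bt took 10.7%, 8.26%, 6.25%, 7.86%, 8.94% and 8.29% of the adult beta-globin counts in NK1 to NK6 and 5.33%, 4.03%, 0, 3.45%, 5.44% and 2.07% in NK7 to NK12. The groups did not overlap, with a mean of 8.38% ± 1.44 in KO-labelled libraries and 3.39% ± 2.08 in WT-labelled ones (SD, n = 6 each). How often shares of other gene pairs do not overlap was not computed. The share rests on the same Hbb-bt counts, whose difference was known when the genes were chosen, so it is no separate evidence. In counts, Hbb-bt had 81 of 955 in all KO-labelled libraries and 30 of 799 in all WT-labelled ones. The 95% Wilson intervals of single libraries were wide. Most overlapped between the labels, as those of NK3 (3.32% to 11.5%) and NK11 (2.78% to 10.4%), but that of NK12 (0.889% to 4.76%) lay below those of NK1 (6.94% to 16.1%), NK5 and NK6. In NK9, 0 of 31 counts allowed a share of up to 9.68%. Intervals and floors cover counting error only, since the reads carried no molecular identifiers.

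Hba-a2 took 44.1%, 32.0%, 33.3%, 44.4%, 50.0% and 26.7% of the alpha-globin counts in NK1 to NK6 and 42.9%, 44.4%, 40.0%, 0, 16.7% and 16.9% in NK7 to NK12. Here 3 WT-labelled libraries lay with KO-labelled ones and 3 lay below them, and the 0 of 22 counts in NK10 allowed up to 13.6%. Alpha counts made up 18.1% ± 1.93 of all globin counts in KO-labelled libraries and 22.2% ± 5.39 in WT-labelled ones (SD, n = 6 each). NK9, with 46 globin counts, held the highest alpha share at 32.6% (95% Wilson interval 20.9% to 47.0%), and the other 11 libraries ran from 16.0% to 22.5%.

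**Figure D3:**
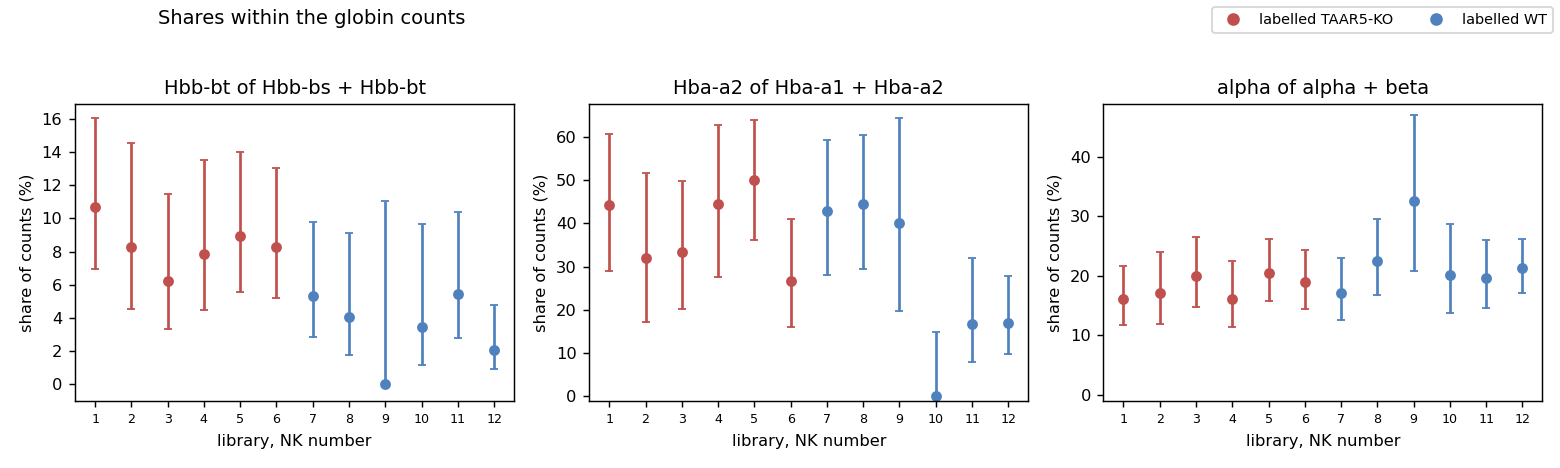
Share of counts (y axis, percent) in each library (x axis, NK number) for Hbb-bt among the beta genes, Hba-a2 among the alpha genes and alpha among all adult globin counts, with 95% Wilson intervals as bars, red for KO-labelled libraries and blue for WT-labelled ones. The Hbb-bt share is at least 6.25% in every red library and at most 5.44% in every blue one. In the Hbb-bt panel, bars of different labels overlap except that NK12 lies below NK1, NK5 and NK6. In the Hba-a2 panel, NK10 lies below every red bar, NK12 below NK1 and NK5, and NK11 below NK5.

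The 4 globin genes together had 46 to 306 counts per library, which was 0.00196% to 0.00660% of the counts outside ribosomal RNA. The sum was 11.4 ± 3.62 CPM in KO-labelled libraries and 7.94 ± 2.78 CPM in WT-labelled ones (SD, n = 6 each), and the groups overlapped. The size of the difference changed with the denominator. Per M of total counts, the sums were 9.81 ± 4.16 and 10.8 ± 5.86, and per M of counts outside ribosomal RNA they were 54.6 ± 12.1 and 44.8 ± 14.1 (SD, n = 6 each, KO-labelled first). On total counts the arithmetic means were thus lower in KO-labelled libraries, while the difference of the mean log2 values was 0.0084, beside 0.52 on TMM library sizes. NK9 held the lowest globin sum on all 3 scales. NK1, highest on TMM library sizes at 16.2 CPM, stood second lowest among KO-labelled libraries on total counts at 6.09 per M.

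**Figure D4:**
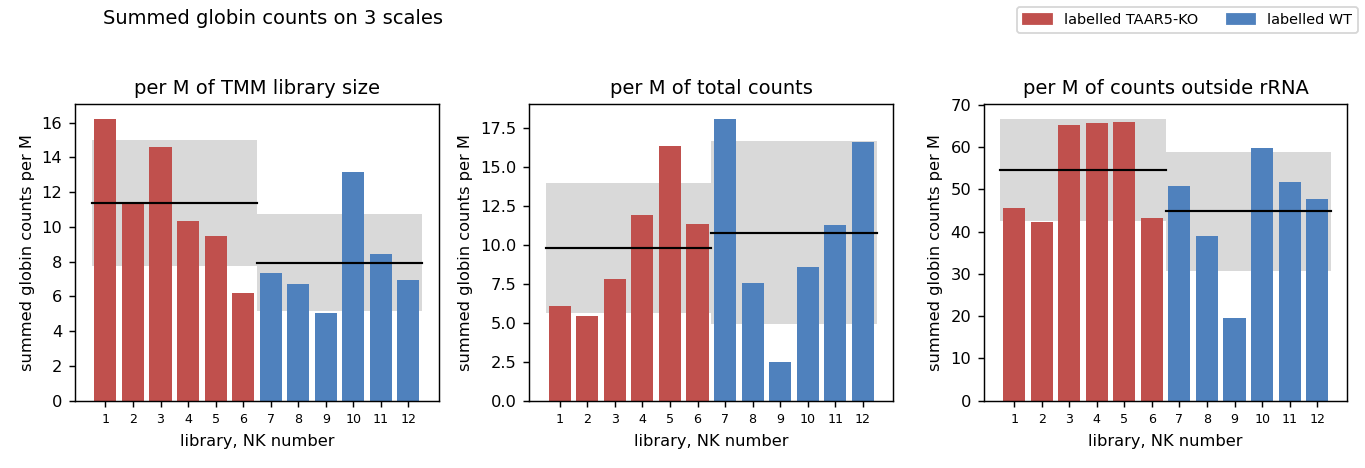
Summed counts of Hba-a1, Hba-a2, Hbb-bs and Hbb-bt per M (y axis) in each library (x axis, NK number), divided by the TMM library size, the total count or the count outside ribosomal RNA, with group means (lines) and 1 SD (bands). Red libraries (KO-labelled) average 11.4 against 7.94 for blue ones (WT-labelled) on the first scale and 9.81 against 10.8 on the second.

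Genes restricted to the erythroid lineage were sparse, while genes that other cells also use were measured. Of 62 genes in 7 lists of globin, haem and red cell genes, 31 passed the filter on low counts and 1 passed the likelihood ratio test, beside 1.65% of all features tested. The list genes tested had a median log2 fold change of −0.08 beside −0.01 over all features tested. All 8 embryonic and other globin genes (among them Hbb-y, Hba-x and Hbb-bh1) had at most 1 count in any library. Among genes of red cells and their precursors, Slc4a1, the anion exchanger of the red cell membrane, reached 7 counts, Ahsp, which stabilises free alpha chains, 2, and the erythroid transcription factors Gata1 and Klf1 reached 1 and 3. Of the 62 genes, 21 had no more than 3 counts in any library, so a difference between groups was not detectable in them at this depth.

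The haem synthesis list, whose genes most cells use, was fully measured, and 0 of its 12 genes passed the likelihood ratio test in either direction (median log2 fold change 0.01). Alas1, the housekeeping counterpart of Alas2, was at 3.58 ± 0.453 CPM in KO-labelled libraries and 3.92 ± 0.426 CPM in WT-labelled ones (SD, n = 6 each). Fech, which inserts iron into the ring, was at 7.53 ± 0.672 and 7.64 ± 0.873 CPM, and Cpox, an earlier enzyme of the pathway, at 8.41 ± 0.845 and 7.97 ± 0.802 CPM. For Slc25a37, the mitochondrial iron importer, the log2 fold change was 0.18 (SE 0.13). For Alad, an early enzyme of the pathway, it was −0.19 (SE 0.31).

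Among red cell membrane genes, 3 of 12 were tested and 1 was higher. Epb41, which codes for protein 4.1 and is also expressed in neurons, was at 14.9 ± 1.51 CPM in KO-labelled libraries and 11.9 ± 1.28 CPM in WT-labelled ones (SD, n = 6 each). It rose by 0.32 on the log2 scale (SE 0.098; likelihood ratio test, adjusted p = 0.0808), but had an adjusted p of 0.161 in the quasi-likelihood test. Epb41 also missed the threshold when NK1, NK2, NK3, NK6, NK7, NK11 or NK12 was left out. With the library size alone its log2 fold change was −0.20 (SE 0.54), beside a median of −0.49 over all features tested. Sptb (beta-spectrin) and Ank1 (ankyrin) had log2 fold changes of 0.01 (SE 0.095) and −0.11 (SE 0.11). In the red cell cytosol list, 0 of 4 tested genes of 8 passed, with Car2 (carbonic anhydrase) at −0.22 (SE 0.097), Prdx2 (peroxiredoxin) at −0.09 (SE 0.10), Cat (catalase) at −0.08 (SE 0.10) and Blvrb (biliverdin reductase B) at −0.17 (SE 0.30). Brain cells express most of the genes tested from these lists, so their levels do not isolate blood.

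No gene of the other lists passed the likelihood ratio test. The 3 of 9 erythroid regulators tested were Tfrc, the transferrin receptor, at a log2 fold change of 0.01 (SE 0.10), Lmo2 at 0.21 (SE 0.17) and Zfpm1 at −0.08 (SE 0.18). Of 6 reticulocyte genes, 4 were tested, and Bnip3l, which acts in the clearance of mitochondria, was at −0.05 (SE 0.094). Ube2o, Mkrn1 and Tent5c were at 0.02 (SE 0.13), −0.10 (SE 0.12) and −0.20 (SE 0.32). Of 7 genes of haemoglobin and iron clearance, 5 were tested. Hmox1, which breaks down haem, was at −0.36 (SE 0.32), Cd163, the receptor for haemoglobin bound to haptoglobin, at 0.40 (SE 0.28), the iron exporter Slc40a1 at −0.10 (SE 0.26), and the ferritin genes Fth1 and Ftl1 at −0.08 (SE 0.11) and −0.58 (SE 0.34).

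**Figure D5:**
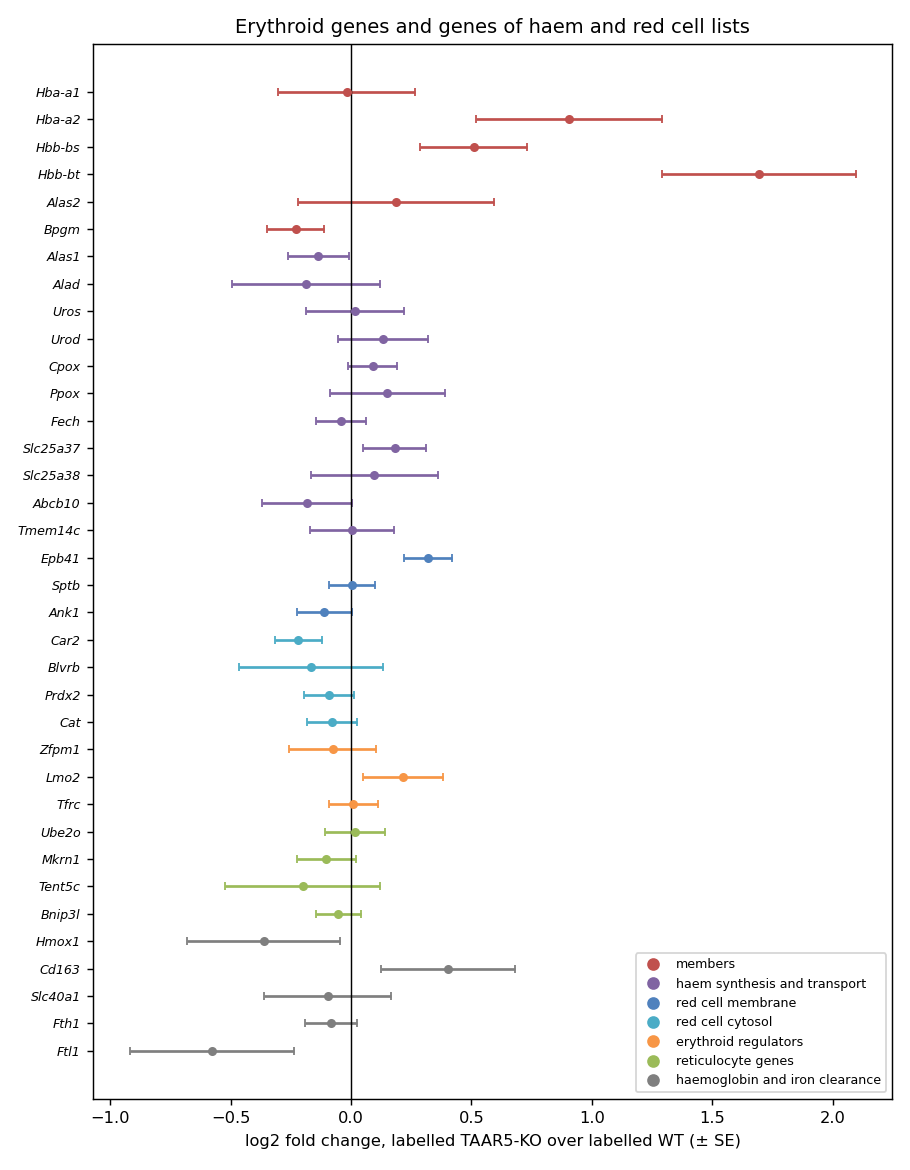
Log2 fold change of KO-labelled over WT-labelled libraries (x axis, bars 1 SE) for the 6 members and 30 of the 31 tested genes of the haem and red cell lists (y axis), coloured by list. Hbb-bt lies at 1.70 and Hba-a2 at 0.91, while the list genes run from −0.58 (Ftl1) to 0.40 (Cd163).

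Markers of platelets, neutrophils and monocytes had low counts, and so did those of lymphocytes, apart mainly from Ighm. The 10 platelet genes summed to 3 to 16 counts per library. Pf4 was at 0 in 10 libraries, while Itga2b (39 counts over all libraries) and Gp1ba (36 counts) were at 0 in 1 each. The 11 neutrophil genes summed to 2 to 33 counts, with S100a8 and S100a9 at 0 in 8 libraries each and Ngp (29 counts) in 2. The 5 monocyte genes summed to 1 to 9 counts, with Ccr2 (28 counts over all libraries) at 0 in none. The 13 lymphocyte genes summed to 15 to 270 counts, 1.64 to 6.89 CPM, mostly from Ighm (870 counts over all libraries, up to 248 in 1). Cd3d was at 0 in 11 libraries and Cd79a in 10, while Igkc (62 counts) and Trbc2 (52 counts) were at 0 in 1 each. None of these lists separated the labels by a two-sided exact permutation test of log2 summed CPM. By this exact permutation test, the log2 differences, KO-labelled minus WT-labelled, were −0.57 for platelets (p = 0.171), −0.18 for neutrophils (p = 0.790), −0.21 for lymphocytes (p = 0.537) and −0.60 for monocytes (p = 0.238).

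Most vessel and neighbouring tissue markers passed the filter on low counts. These were 11 of 12 endothelial, 7 of 10 mural, 5 of 7 leptomeningeal and 9 of 9 choroid plexus genes. Among mural genes, Rgs5 had the most counts (1400 over all libraries) and Tagln the fewest (7). The 12 endothelial genes summed to 9.81 ± 1.32 CPM in KO-labelled libraries (8.60 to 12.0) and 9.64 ± 0.790 CPM in WT-labelled ones (8.53 to 10.9), a log2 difference of 0.02 (exact permutation p = 0.848). The 10 genes of mural cells, the smooth muscle cells and pericytes of vessels, summed to 10.7 ± 1.25 and 12.4 ± 1.69 CPM (log2 difference −0.22, exact permutation p = 0.0714), and the 7 leptomeningeal genes to 5.41 ± 1.61 and 6.39 ± 1.59 CPM (−0.25, exact permutation p = 0.275). Choroid plexus genes, led by Ttr, varied from 4.46 to 519 CPM and were below 10 CPM in NK1, NK2, NK3, NK6 and NK12 (log2 difference −2.35, exact permutation p = 0.210). The 8 striatal neuron genes summed to 359 ± 36.7 and 289 ± 58.5 CPM (SD, n = 6 each), a log2 difference of 0.34 (exact permutation p = 0.0216) that had an adjusted p of 0.195 over the 9 lists, and of 0.20 (adjusted p = 0.351) without NK11. The smallest p that 6 libraries against 6 allow is 0.00216.

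Across libraries, the level of Hbb-bs was set against the 9 marker lists and 3 technical measures, 12 relations in all. No relation passed a Benjamini–Hochberg adjusted p of 0.05 (permutation test, adjusted p for r from 0.625 to 0.900 and for rho from 0.418 to 0.886). Hbb-bs against endothelial markers gave r = 0.04 and rho = −0.05 (permutation p = 0.900 and 0.886), and r = −0.17 without the 2 libraries farthest from the median. Against mural markers, r was −0.46 and rho −0.49 (permutation p = 0.127 and 0.108), and r = −0.51 without 2 libraries. Against the ribosomal RNA share, r was 0.44 and rho 0.45 (permutation p = 0.156 and 0.139), with r = 0.42 without 2 libraries, 0.90 among the 6 KO-labelled libraries and 0.00 among the 6 WT-labelled ones. Against the TMM library size, which is the denominator of the level itself, r was −0.44 and rho −0.51 (permutation p = 0.152 and 0.0936), with r = −0.30 without 2 libraries, −0.94 among KO-labelled libraries and −0.15 among WT-labelled ones. Against the count outside ribosomal RNA, r was −0.25 and rho −0.27 (permutation p = 0.427 and 0.389), with r = 0.025 without 2 libraries, −0.39 among KO-labelled libraries and −0.30 among WT-labelled ones. Striatal neuron markers had the largest rho at 0.54 (permutation p = 0.0748), with r = 0.34 (permutation p = 0.291), 0.49 without 2 libraries, 0.81 among KO-labelled libraries and −0.21 among WT-labelled ones. The part of these measures in the genotype difference of Hbb-bs was not tested. With the library size as the only scaling, 8 of the 12 relations passed an adjusted p of 0.05 (permutation test). On either scaling, the marker lists share their denominator with Hbb-bs.

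Of the other members, Hbb-bt and Alas2 were most like Hbb-bs on TMM library sizes. Over the 12 libraries, Pearson's r of log2 CPM with Hbb-bs was 0.83 for Hbb-bt, which ranked 7 of 13901 features, and 0.82 for Alas2, which ranked 9. Hba-a1 ranked 167 (r = 0.68), Hba-a2 5918 (r = 0.05) and Bpgm 9616 (r = −0.21). NK1 was the highest library for Hbb-bs, Hbb-bt and Alas2 and NK9 the lowest for all 3. The 10 other features with the highest r were Sgcd (0.92), Ccnc (0.87), Hebp1 (0.86), Gm48751 (0.84), Mypn (0.84), Dgki (0.84), Pik3r4 (0.83), Zfp944 (0.82), Cep85 (0.82) and 1110059E24Rik (0.82). None of these 10 was past the genotype threshold in the likelihood ratio test. The points share their libraries and scaling factors, and only 3 of the 10 were also among the 10 highest by Spearman's rho and 2 with the library size as the only scaling. The order of the members changed too. With the library size alone, r with Hbb-bs was 0.87 for Alas2, 0.86 for Hba-a1, 0.78 for Bpgm, 0.77 for Hbb-bt and 0.46 for Hba-a2. Hbb-bt and Hbb-bs also share read windows, and the part of shared reads in their likeness was not tested.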

How the data were processed

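Striatal RNA from 12 mice was depleted of ribosomal RNA and sequenced from directional libraries as single-end reads of 100 bases, although the labels name polyA RNA as the molecule. The authors trimmed reads with cutadapt 4.1, aligned them to GRCm39 with STAR 2.7.11b and deposited whole-number counts per gene from featureCounts 2.0.6 (GENCODE M35), without normalization, together with exon lengths. Strand and multi-mapping settings are not given in the sources used here. The table holds 12 further columns that match no sample here and were left unused. Libraries carry a genotype and an NK number, so each is a replicate of its label. P-values set a difference or a relation against the spread between these libraries, in which sex could not be separated. Pairs of libraries within a label were no copies of each other (chi-square per degree of freedom 6.74 to 319 over 30 pairs).

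The filter kept 13902 features with 0.5 CPM of total counts or more in 3 or more libraries. These were fitted in edgeR 4.0.16 (R 4.3.3) by glmLRT on TMM library sizes with genotype as the sole term, at an adjusted p under 0.1, the test and threshold of the study's methods. Those methods name CPM and do not name TMM. The study reported fewer features and fewer calls, with more genes lower than higher in TAAR5-KO, unlike the balance here. DESeq2 1.42.0 and the quasi-likelihood test were alternatives. Single values per library were compared by exact permutation, and correlations by 100000 permutations. Log2 CPM had a prior count of 2. Windows, exons and positions were read from GRCm39 with GENCODE M39, which is newer than the annotation behind the counts, and promoters from RefSeq (GRCm38.p6). All 6 members matched a promoter, placed by exact match of its letters. Each alpha window matched at 2 places on chromosome 11 and was given the one nearest its gene's start.

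Members and lists were chosen with earlier results of these data known. The named genes were the members, Taar5, called list genes, list genes whose highest count reached that of Alas2, and the 10 features most like Hbb-bs, and some list genes are not reported here. Epb41 is the only list gene called, and the sparse genes and the markers given by count were added to this rule after their values were seen. Alternatives were other scalings, filters, tests and thresholds, summed copies, removal of ribosomal RNA features and leaving out each library in turn. The CPM filter on TMM library sizes, correction for GC content per library, leaving out NK1 to NK3 together, and the leave-one-out values of the Hbb-bt share were added after seeing the data.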

Additional observations from a re-analysis of the deposited data

Results flagged for a closer look

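In 8 of 44 groups of 6 libraries, the highest or lowest library lay far from the others by Dixon's test at the 95% level. For normal values, chance alone gives this in about 1 of 20 groups. The groups share libraries and counts, so the 8 cannot be set against that rate. Among the members, Hba-a1 in NK10 (2.65 CPM) stood above the other libraries labelled WT, as did Bpgm in NK10 (6.99 CPM), and Hbb-bt in NK1 (1.46 CPM) stood above the other libraries labelled TAAR5-KO. NK10 has the smallest TMM library size. Without NK10, the log2 fold change of Hba-a1 was 0.21 and that of Bpgm −0.17, and without NK1 that of Hbb-bt was 1.44. The alpha share of globin counts in NK9 was 32.6%, or 33.2% after division by exon length, on 46 globin counts. Among the marker lists, the log2 summed CPM of the monocyte list was −0.92 in NK4, that of the choroid plexus list 2.39 in NK12 and that of the striatal neuron list 7.46 in NK11.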

How the results depend on the processing

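No paired analysis was possible because the columns carry NK numbers and none of the animal numbers of the labels, so the fit held no replicate block. In place of 229 features, 63 were called by the quasi-likelihood test, 7 with the library size alone, 93 without a filter, 108 at an adjusted p under 0.05, 86 with the GC trend removed, 58 without NK1 to NK3 and 85 (without NK11) to 415 (without NK4) with 1 library left out. Over leave-one-out fits, the log2 fold change ran from 1.44 to 1.89 for Hbb-bt, −0.16 to 0.21 for Hba-a1, 0.74 to 1.13 for Hba-a2, 0.38 to 0.70 for Hbb-bs, −0.077 to 0.42 for Alas2 and −0.29 to −0.17 for Bpgm. Without NK1 to NK3, the log2 fold change was 0.12 (SE 0.24) for Hbb-bs, −0.40 (SE 0.33) for Hba-a1, 0.68 (SE 0.48) for Hba-a2 and −0.21 (SE 0.14) for Bpgm. Hbb-bt stayed past the threshold in each leave-one-out fit, beside the 85 to 415 features called. Hba-a2 and Hbb-bs passed it without NK6, where 190 of 13634 features were called. Hbb-bs passed it without NK10, where 205 of 13880 were called. Since the genes were chosen with this contrast known, nothing is read from these calls. The call of Hbb-bt was lost in the quasi-likelihood test (1.68), with the library size alone (0.99) and without NK1 to NK3 (1.31), filterByExpr removed the gene, and DESeq2 gave it no adjusted p (1.74). Direction turned with the library size alone for Hbb-bs (−0.17) and Alas2 (−0.61), while that scaling moved the median over all features tested from −0.01 to −0.49. It also turned without NK1 to NK3 for Alas2 (−0.49), and with the GC trend removed for Hba-a1 (0.11). The direction of Epb41 also turned with the library size alone (−0.20), it ran from 0.26 to 0.35 with 1 library left out, and its call was lost in the other settings named in the report, at an adjusted p under 0.05, without a filter, without ribosomal RNA features (0.31), with the GC trend removed and without NK1 to NK3 (0.22). The cause was not tested.

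The globin sum had a log2 difference of 0.52 on TMM library sizes (0.40 to 0.68 with 1 library left out) and 0.0084 on total counts. The Hbb-bt share differed by 4.31 to 5.42 percentage points and the alpha share by −5.13 to −2.04 with 1 library left out. For marker lists, leaving out 1 library gave log2 differences of −0.53 to 0.18 for neutrophils, −0.041 to 0.055 for endothelium, −0.77 to −0.33 (without NK10) for platelets, −0.90 (without NK4) to −0.30 (without NK10) for monocytes, −0.46 (without NK9) to −0.051 (without NK11) for lymphocytes, −0.38 to −0.15 (without NK3) for leptomeninges and 0.20 (without NK11) to 0.39 for striatal neurons. Endothelium turned to −0.49 with the library size alone and −0.039 as a mean of log2 CPM, and striatal neurons turned to −0.17 with the library size alone. The median over all features tested was −0.49 with that scaling. With the library size alone, 8 of the 12 relations of Hbb-bs passed an adjusted p of 0.05 (permutation test). The marker lists share their denominator with Hbb-bs on this scaling and on TMM library sizes. With the library size alone, r was 0.67 with platelet, 0.88 with lymphocyte, 0.81 with endothelial, 0.79 with mural, 0.80 with leptomeningeal, 0.30 with choroid plexus and 0.81 with striatal neuron markers. It was −0.78 with the ribosomal RNA share, 0.40 with the count outside it and 0.71 with the TMM library size. On TMM library sizes, without the 2 libraries farthest from the median, r turned to −0.013 for platelet, −0.18 for lymphocyte, −0.32 for monocyte, −0.17 for endothelial, 0.36 for leptomeningeal and 0.069 for choroid plexus markers and 0.025 for the count outside ribosomal RNA. Depth limits Hba-a1, Hba-a2, Hbb-bt and Alas2, which had at most 54 counts in a library.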
